A study of Mus musculus with 12 samples.

Results

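A day in a gel of bovine collagen was compared with a day in liquid media in activated mouse CD8+ T cells, over all genes of a bulk RNA sequencing table. The members are the 3 bovine collagen libraries and the 3 media libraries, 6 of the 12 libraries of the series, taken by their sample labels. All came from wild-type male mice, with cells of spleen and lymph nodes. Cells of both groups were stimulated for 2 days with antibodies against CD3 and CD28, grown for a further day with recombinant interleukin 2, and moved on day 3 for 24 h either into media or into bovine collagen at 2 mg/mL. RNA was taken on day 4. The other 6 libraries, used here only for reference, are 3 of naive cells lysed on day 0 without stimulation and 3 of cells that went through the same steps into rat tail collagen, also at 2 mg/mL. Per the labels, cells were recovered from the gel before RNA extraction, and media cells had no such gel to leave. Contact with collagen, confinement in a gel and recovery from it therefore cannot be told apart.

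Fibrillar collagen is the main scaffold that T cells meet when they leave blood for tissue, and a collagen gel is a common way to give them a 3-dimensional matrix in culture. CD8+ T cells that settle in tissue as resident memory cells are known for CD69 and CD103 on their surface and for low levels of the genes Klf2 and S1pr1, which otherwise promote exit to lymph and blood. Immediate early genes such as Fos, Fosb, Egr1 and Nr4a1 respond within minutes to receptor, growth factor or stress signals without new protein synthesis. Their products, with those of the KLF family, are transcription factors.

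Library totals were 53138362, 42001486 and 45841558 counts in media 1, 2 and 3 and 36699062, 28483064 and 39710270 in bovine collagen 1, 2 and 3. Every bovine library was thus shallower than every media library, and each also had fewer gene symbols with counts. Levels below are CPM, counts divided by library size, on a scale adjusted for library composition (TMM), changes are log2 fold changes of bovine collagen over media, and adjusted p-values come from edgeR's quasi-likelihood test over all genes tested. The T cell markers were present as labelled: 16 of 16 on the list were tested, and their summed level was 6608 to 7457 CPM in media and 6726 to 7211 CPM in bovine collagen. Of the marker lists for B cells, myeloid cells, stroma, red cells and other T cell types, no member was called under either fit described below. The B cell genes Ms4a1 and Pax5 had totals of 10 counts or fewer in each group, as did Lyz2 in bovine collagen, although Ighm stood at 955 ± 64.8 CPM in media and 950.1 ± 93.6 in bovine collagen. In bovine collagen 1, 2 and 3, ribosomal RNA made up 6.41%, 11.9% and 5.50% of the counts, against 4.57 ± 0.137% in media (SD, n = 3). This gave an exact two-sided permutation p of 0.1, the smallest that 3 against 3 libraries allow, and its part in the results was not tested beyond the fits without these genes. Lars2 held 2.05 ± 1.47% of the counts in bovine collagen and 0.515 ± 0.124% in media, and Mir6236 0.697 ± 0.509% and 0.193 ± 0.0457%. The same permutation test gave p = 0.1 for each of them, for total counts and for symbols with counts. Lars2 and Mir6236 stayed in every fit, and the part of depth was not tested.

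Few genes separated the groups by more than the spread between libraries. Of 19392 genes, 4 were called at an adjusted p under 0.05 (0.0206%), and all 4 were higher in bovine collagen: Fosb, Fos, Klf4 and the noncoding gene Gm37352. None was called lower in this edgeR fit or with limma-voom, while 3 were in edgeR with library totals in place of TMM, 18 in edgeR without the filter on low counts and 7 with DESeq2. At an unadjusted p under 0.05 edgeR gave 462 genes higher (2.38%) and 348 lower (1.79%), together 4.18% of the genes. The 3 libraries of one group lay wholly above or below the other in 1775 genes (9.15%), with bovine collagen above in 903 (4.66%) and below in 872 (4.50%). Were the group labels interchangeable, full separation of 3 against 3 libraries would have a probability of 0.1 per gene. A lack of overlap in a gene is therefore weak evidence by itself. For 81.1% of the genes tested, the 95% interval of the change lay within 2-fold in either direction. For comparison, rat tail collagen against media gave calls in 58.4% of the same genes in the same fit, and rat tail against bovine collagen in 54.7% (28.4% higher and 26.4% lower in rat tail collagen).

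The promoters of the 3 called protein-coding genes are shown because these genes carried the clearest difference. Each is the 250 bases before the start site in RefSeq on GRCm38.p6, 5′ to 3′ on the gene's own strand. Capitals mark TGACG or its reverse complement CGTCA, the core of the cyclic AMP response element, found by a search of both strands.
Fos (chr12:85473640-85473889, plus strand): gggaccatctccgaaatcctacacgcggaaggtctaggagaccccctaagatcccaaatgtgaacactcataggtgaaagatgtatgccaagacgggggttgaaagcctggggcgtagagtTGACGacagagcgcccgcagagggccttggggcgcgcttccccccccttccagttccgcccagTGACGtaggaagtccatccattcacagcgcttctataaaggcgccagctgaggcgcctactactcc
Fosb (chr7:19310046-19310295, minus strand): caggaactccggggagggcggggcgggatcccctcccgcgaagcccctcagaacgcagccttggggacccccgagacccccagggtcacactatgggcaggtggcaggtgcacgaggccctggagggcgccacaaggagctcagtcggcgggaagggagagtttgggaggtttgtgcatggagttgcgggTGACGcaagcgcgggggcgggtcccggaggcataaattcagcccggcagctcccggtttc
Klf4 (chr4:55532476-55532725, minus strand): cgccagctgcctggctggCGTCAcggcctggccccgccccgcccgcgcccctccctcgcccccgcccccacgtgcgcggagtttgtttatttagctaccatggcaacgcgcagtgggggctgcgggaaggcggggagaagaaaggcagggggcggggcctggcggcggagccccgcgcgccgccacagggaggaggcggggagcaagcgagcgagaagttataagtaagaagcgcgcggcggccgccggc
Fos held the letters at 129 and 66 bases before the start site, Fosb at 60 and Klf4 at 232. Of 32851 promoters of this length, 17.8% hold TGACG on either strand and 1.55% the full TGACGTCA, which none of these 3 windows holds. A match describes letters only and is not evidence of a bound factor.

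Fosb encodes an AP-1 transcription factor subunit of the Fos family (chromosome 7, 19302696 to 19310051 on GRCm38, minus strand). Its level was 2.16, 3.11 and 2.31 CPM in media 1, 2 and 3 and 17.5, 22.02 and 24.9 CPM in bovine collagen. Every bovine library was above every media library. Fosb rose by 3.09 on the log2 scale (SE 0.182, 95% interval 2.69 to 3.49, adjusted p = 4.28e-05 in edgeR). Cells in rat tail collagen had 9.07, 7.74 and 7.03 CPM and naive cells 104, 173 and 246 CPM, so the bovine libraries lay above rat tail collagen and well under naive cells. The direct test of rat tail against bovine collagen gave -1.44 (adjusted p = 2.27e-05 in edgeR).

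Fos, the founding member of that family (chromosome 12, 85473890 to 85477273, plus strand), showed the same order at lower levels in these libraries. It stood at 1.07, 1.18 and 0.684 CPM in media and 6.56, 8.01 and 5.75 CPM in bovine collagen, with no overlap. The increase was 2.79 on the log2 scale (SE 0.235, interval 2.27 to 3.30, adjusted p = 0.000978 in edgeR). Rat tail collagen had 2.57, 1.88 and 1.80 CPM, lower than bovine collagen by the direct test (-1.71, adjusted p = 5.28e-05 in edgeR). Naive cells had 211, 335 and 445 CPM, far above all day 4 libraries.

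Klf4 encodes a zinc finger transcription factor associated with quiescence in T cells (chromosome 4, 55527143 to 55532466, minus strand). Its levels were low, 0.669, 0.577 and 0.364 CPM in media and 1.84, 2.18 and 3.41 CPM in bovine collagen, and did not overlap. The rise was 2.21 (SE 0.277, interval 1.60 to 2.82, adjusted p = 0.0277 in edgeR). Klf4 was still higher in rat tail collagen, at 12.4, 10.4 and 13.3 CPM (2.26 over bovine collagen, adjusted p = 8.43e-06 in edgeR), and in naive cells at 15.4, 21.3 and 24.8 CPM. Unlike Fos and Fosb, it thus lay between media and rat tail collagen. Its call is the least firm of the 4: without media 2, media 3 or bovine 2 the adjusted p was 0.195, 0.0720 or 0.0926 in edgeR, over a range of 3.72e-18 to 0.304 across all settings, and its log2 value stayed between 1.68 and 2.58.

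**Figure D1:**
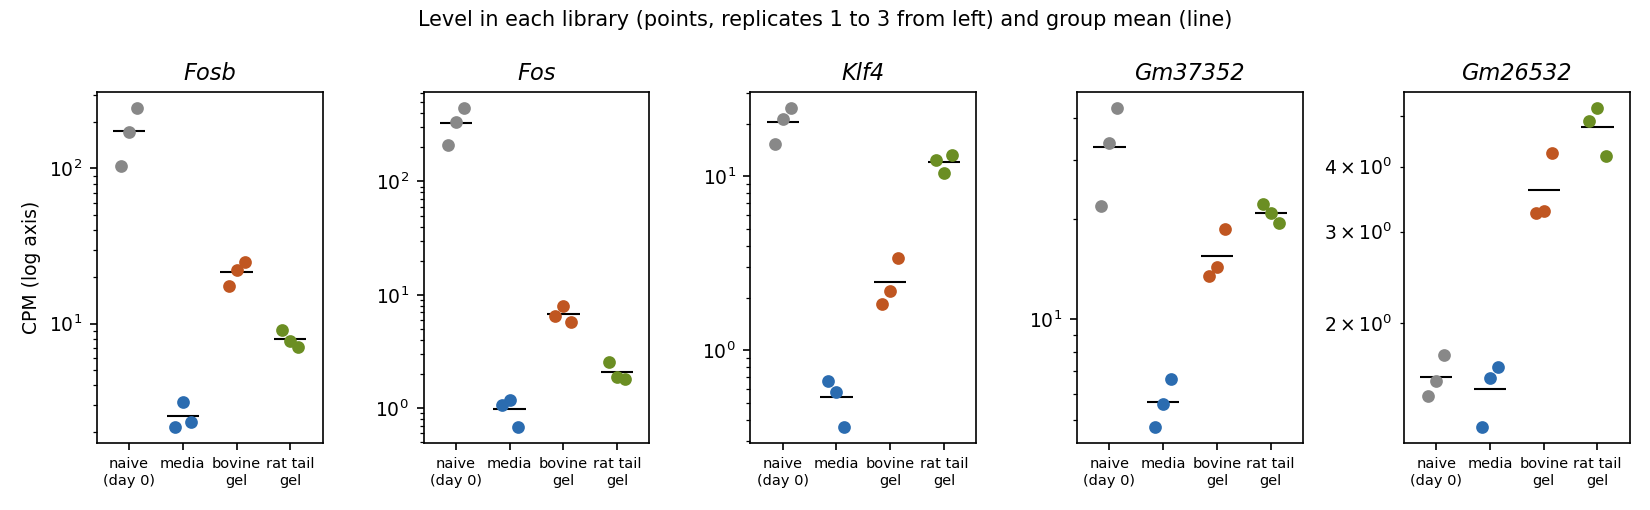
Level in CPM (vertical log axis) of the 4 called genes and Gm26532 in each library of the 4 groups; points are libraries, ordered 1 to 3 from left, and lines are group means. For Fosb and Fos the bovine collagen points lie above rat tail collagen, and for Klf4 and Gm37352 below it; in all 5 genes they lie above every media point.

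The fourth call lies at the cluster of miR-23a, miR-27a and miR-24-2. Gm37352 is an unspliced noncoding gene model awaiting experimental support in GENCODE (chromosome 8, 84200869 to 84203049, plus strand). It had 4.78, 5.61 and 6.65 CPM in media and 13.5, 14.3 and 18.6 CPM in bovine collagen, and rose by 1.45 (SE 0.149, interval 1.12 to 1.77, adjusted p = 0.00511 in edgeR). Without media 2 that adjusted p was 0.0631 in edgeR, over a range of 2.55e-40 to 0.0957 across all settings. Rat tail collagen had 22.1, 20.8 and 19.4 CPM, higher than bovine collagen by 0.41 on the log2 scale (adjusted p = 0.027 in edgeR). The gene ends 5468 bases before the miR-23a hairpin on the same strand, and the hairpins of miR-27a and miR-24-2 follow. The 3 mature miRNAs of the hairpins are shown because they name the locus; capitals mark the seed, bases 2 to 8, from RefSeq on GRCm38.p6.
mmu-miR-23a-3p (chr8:84208563-84208583, plus strand): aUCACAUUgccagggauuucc
mmu-miR-27a-3p (chr8:84208727-84208747, plus strand): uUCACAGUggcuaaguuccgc
mmu-miR-24-3p (chr8:84208875-84208896, plus strand): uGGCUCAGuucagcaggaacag
The 3 seeds differ from each other.

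The rest of the locus was described after its values were seen. The lincRNA gene Gm26532 (chromosome 8, 84208920 to 84209609, plus strand) starts within the last bases of the miR-24-2 hairpin. It had 1.26, 1.57 and 1.65 CPM in media and 3.26, 3.29 and 4.25 CPM in bovine collagen, without overlap. Its change of 1.28 (SE 0.181) missed the threshold at an adjusted p of 0.0589 in edgeR. Reads assigned to the 3 hairpins together numbered 11, 18 and 19 in media 1, 2 and 3, against 22, 37 and 49 in bovine collagen and 50, 75 and 44 in rat tail collagen. These libraries come from long RNA, so the counts describe RNA that spans the hairpins and not the mature miRNAs. Zswim4, on the other strand next to the cluster, stood at 0.06 (adjusted p = 1 in edgeR).

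Fos and Fosb were the only immediate early genes called on the lists examined in this fit. Of 13 AP-1 subunit genes tested, those 2 were called and no other, and the list's median change was 0.04 against -0.01 over all genes. Jun was at 27.01, 27.6 and 43.004 CPM in media and 25.2, 28.2 and 30.2 CPM in bovine collagen (-0.23, interval -0.69 to 0.24). Junb gave -0.09 (-0.45 to 0.27), Jund 0.00 (-0.24 to 0.25) and Batf, a partner of Jun proteins in T cells, -0.01 (-0.35 to 0.34). Of 28 other immediate early genes, none was called, and 1 was higher and 1 lower at an unadjusted p under 0.05. Egr1, a zinc finger factor induced through MAP kinases, gave 0.25 (-0.25 to 0.75). Among 14 KLF genes Klf4 was called and no other.

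By the fixed naming rule, the 12 genes next in order in each direction are those without overlap, with 5 CPM or more and the smallest p, none of which was called. The higher 12 were Tsc22d3, Cd24a, Plxnb2, Ctla4, Klf6, Slc6a19, Dusp1, Lmtk3, Hip1, Npepps, Ptprj and Kdm5b. Tsc22d3, a glucocorticoid-induced leucine zipper gene, had 31.3, 25.8 and 27.8 CPM in media and 46.3, 45.9 and 55.6 CPM in bovine collagen (0.80, adjusted p = 0.0589 in edgeR), against 26.2, 26.97 and 20.995 CPM in rat tail collagen. Cd24a, which encodes a small glycosylated surface protein, had 4.66, 4.59 and 4.28 CPM in media and 11.4, 8.13 and 7.23 CPM in bovine collagen (0.98, adjusted p = 0.0602 in edgeR). It reached 181, 172 and 172 CPM in rat tail collagen. Ctla4, an inhibitory receptor gene, had 272, 239 and 238 CPM in media and 352, 340.2 and 343 CPM in bovine collagen (0.47, adjusted p = 0.0888 in edgeR).

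The lower 12 included Tnf, Osm, Lif, Gem, Gbp7, Irgm1, Cish, Tgtp1, Irf8, Socs3 and Arrdc3. Among them 3 encode cytokines (Tnf, Osm and Lif), 2 are feedback inhibitors of cytokine receptors (Cish and Socs3), and Gbp7, Irgm1, Tgtp1 and Irf8 are known as interferon-induced genes. Tnf, the gene of tumour necrosis factor, had 52.6, 52.5 and 60.3 CPM in media and 36.8, 39.4 and 38.4 CPM in bovine collagen (-0.53, interval -0.71 to -0.35, adjusted p = 0.0817 in edgeR). Osm, the gene of oncostatin M, had 24.9, 24.2 and 26.5 CPM in media and 14.5, 15.04 and 13.4 CPM in bovine collagen (-0.82, interval -1.11 to -0.52, adjusted p = 0.124 in edgeR). Cish, a STAT5 target, had 37.3, 55.1 and 67.8 CPM in media and 18.8, 30.98 and 25.005 CPM in bovine collagen, and 123, 128 and 183 CPM in rat tail collagen, on the other side of media. The difference of rat tail from bovine collagen was 2.53 for Cish and 2.32 for Irf8 (adjusted p = 3.14e-05 and 1.86e-07 in edgeR).

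None of the 18 genes of residence, homing and effector function was called in this fit. Itgae, which encodes CD103, was at 170.2, 196 and 315 CPM in media and 147, 179 and 318 CPM in bovine collagen. The libraries of the same number resembled each other more than those of the same group, and the change was -0.08 with an interval of -0.87 to 0.71. S1pr1, the receptor for exit from lymphoid tissue, gave 0.07 (-0.10 to 0.24), so a change of 1.5-fold lay outside its interval. Cxcr6 gave -0.00 (-0.27 to 0.26), Ccr2 0.06 (-0.19 to 0.31), Vim -0.11 (-0.45 to 0.23) and the mechanosensitive channel gene Piezo1 0.09 (-0.09 to 0.27). For Klf2 (-0.63 to 1.02), Gzmb (-0.62 to 1.07), Prdm1 (-0.82 to 1.46) and Itga1 (-0.30 to 1.04) the intervals reached a change of 2-fold.

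Replicate number took a larger share of the variance than culture. Over 17926 genes, number accounted for 57.9% of the variance among the 6 libraries, media or bovine collagen for 17.8% and the rest for 24.3%. Number sorts the libraries into 3 sets and culture into 2, so number takes the larger share on average even where neither has an effect. The shares are therefore not on a like footing, and 17.8% is not by itself an effect of the gel. Gzma, a granzyme gene, was at 36.5, 22.5 and 6.78 CPM in media 1, 2 and 3 and 37.6, 28.1 and 10.5 CPM in bovine collagen 1, 2 and 3. Ccl5, a chemokine gene of effector cells, was at 32.9, 23.6 and 10.9 CPM in media and 37.2, 26.9 and 11.3 CPM in bovine collagen. Both were highest in the libraries numbered 1 and lowest in those numbered 3, in either culture. The labels do not say what a number marks. A second fit on the 6 libraries, with the number as a block, compares each bovine library with the media library of its number. It rests on the reading that equal numbers belong together, which the check of the libraries met for abundant genes and missed for 1 pair over all genes, and it was adopted with its calls already seen. Its results are given apart for these reasons.

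With the block, 667 of 17926 genes were called (3.72%), 373 higher (2.08%) and 294 lower (1.64%), and the 4 genes above were among them. At an unadjusted p under 0.05 this fit gave 3042 genes (17.0%), 1578 higher (8.80%) and 1464 lower (8.17%). All 667 called genes changed the same way in 3 of 3 pairs, as did 18.1% of all genes upward and 19.5% downward. The fit favours genes whose pairs move together, so that count for the called genes is no separate support. The changes were small: the median size was 0.23 on the log2 scale, and 16 genes passed 2-fold (13 higher and 3 lower). Scaling by library totals in place of TMM gave 72 higher and 488 lower, so the balance of directions depends on the scaling. Of the 667 genes, 91 were called under each of the 11 other settings of this fit that gave them an adjusted p, 42 higher and 49 lower. Genes called higher had a median transcript length of 4104 bases and those called lower 1670.5, against 2602 over all genes in the fit, and with offsets for GC content and length 385 genes were called, 346 of them among the 667. On simulated data this fit made more false calls than its threshold allows, so a single call near the threshold carries less weight.

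**Figure D2:**
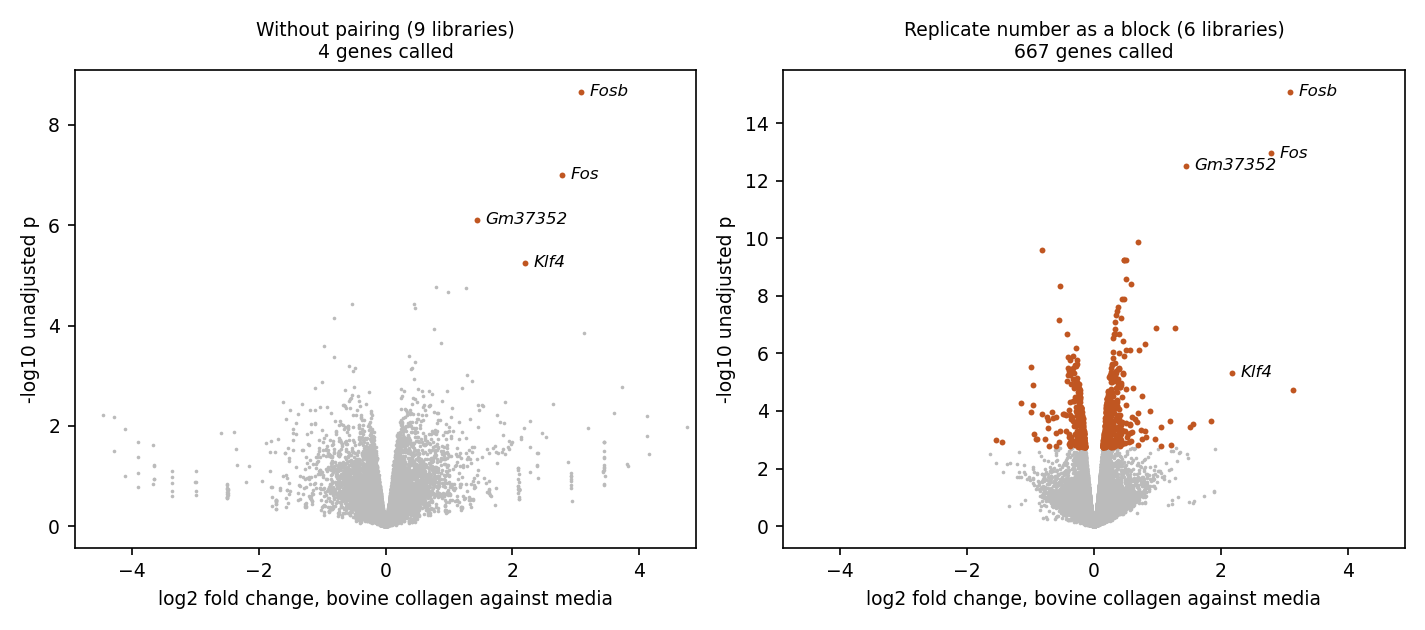
Each point is a gene, with the log2 fold change of bovine collagen over media across and -log10 of the unadjusted p up; the left panel is the fit of the 9 day 4 libraries without pairing and the right panel the fit of 6 libraries with replicate number as a block (17906 genes shared with the left panel). Orange points are called, 4 on the left and 667 on the right, most of the latter within 2-fold.

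Among genes called higher with the block under every setting that gave an adjusted p were surface molecules of activated T cells. The list for the T cell receptor response went both ways, however. Of its 20 members, 3 were called higher with the block and 2 lower, where 2.08% and 1.64% of all genes were. Cd69 and Tagap were among the 3 and Tnf among the 2. At an unadjusted p under 0.05 in edgeR with the block, 4 were higher and 3 lower, and the list's median was -0.01. Cd69, which encodes an early activation and retention marker, was at 56.1, 59.2 and 73.9 CPM in media and 79.1, 89.3 and 99.9 CPM in bovine collagen. Each bovine library was above each media library, and Cd69 rose by 0.51 (SE 0.0428, adjusted p = 1.32e-06 in edgeR with the block). Rat tail collagen lay on the other side of media, at 31.5, 27.7 and 38.3 CPM (-1.47 from bovine collagen, adjusted p = 5e-06 in edgeR). Ctla4 rose by 0.47 (SE 0.0396, adjusted p = 1.32e-06 in edgeR with the block). Tnfrsf8, the gene of CD30, differed much between numbers, with 35.9, 27.9 and 12.1 CPM in media and 48.2, 39.95 and 16.7 CPM in bovine collagen. The groups overlapped, but each bovine library exceeded its pair (0.47, adjusted p = 1.78e-05 in edgeR with the block).

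The same held for genes of signalling and secretion. S100a4, a calcium-binding protein gene of motile cells, was at 26.97, 18.2 and 10.1 CPM in media and 41.5, 29.99 and 16.8 CPM in bovine collagen. It overlapped between groups and rose in each pair, by 0.64, 0.72 and 0.72 (0.69 in the fit, adjusted p = 5.93e-07 in edgeR with the block). Tagap, a GTPase activating protein gene induced by T cell activation, went from 71.5, 65.6 and 87.1 CPM in media to 93.9, 104 and 139 CPM in bovine collagen (0.58). Serpine2, a secreted serine protease inhibitor gene, rose by 0.51, the amino acid transporter gene Slc6a19 by 0.47 and the organic anion transporter gene Slco4a1 by 0.45. Tnfaip3, a brake on NF-kB, rose by 0.37, the orphan nuclear receptor gene Nr4a1 by 0.57, Klf6 by 0.38, Tsc22d3 by 0.80 and the MAP kinase phosphatase gene Dusp1 by 0.42. Of 18 NF-kB targets, however, Tnfaip3 was the 1 called higher with the block, and 1, Nfkbia, was called lower. Nfkbia was called in 7 of the 11 other settings. At an unadjusted p under 0.05 in edgeR with the block, 2 of the 18 were higher and 7 lower. The 28 other immediate early genes, Nr4a1 included, also went both ways. With the block 4 were called higher (Nr4a1, Trib1, Btg2 and Zfp36) and 3 lower (Gadd45g, Ier3 and Srf). At an unadjusted p under 0.05 in that fit, 7 were higher and 6 lower, and the list's median was 0.03. Btg2 was called in 3 of the 11 other settings, Zfp36 in 4, Srf in 7 and Trib1 in 8. Ier3 was called in 6 of 10 and Gadd45g in 8 of 10. With DESeq2 1 member was called higher and without robust estimation 2, and none lower in either. Dusp1 overlaps other genes on the opposite strand, and the strand setting of the counting is not given in the sources used here.

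**Figure D3:**
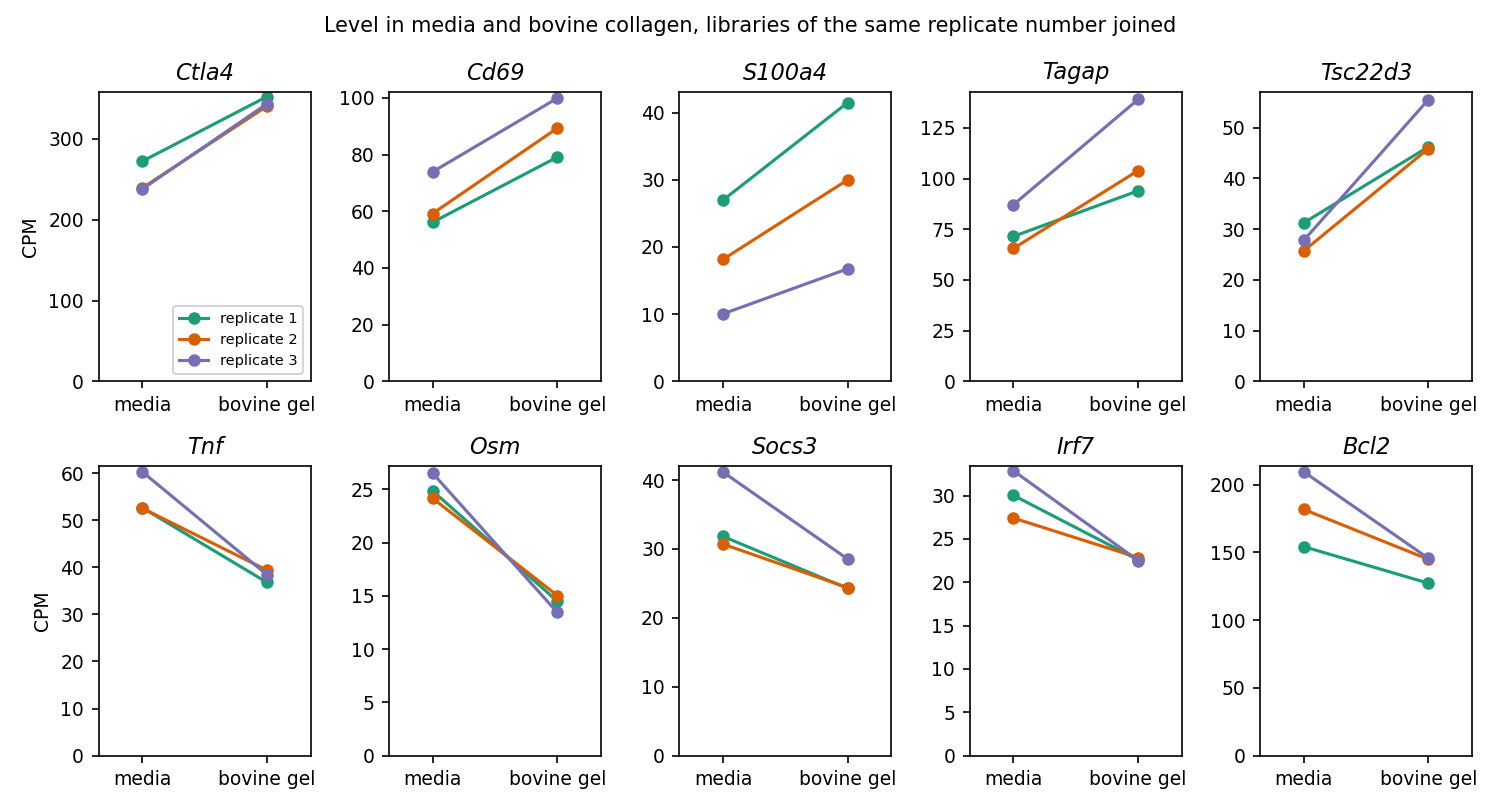
Level in CPM (vertical axes from 0) of 5 genes called higher and 5 called lower with the block, in media and bovine collagen; each line joins the libraries of 1 replicate number. All lines rise in the upper row (Ctla4, Cd69, S100a4, Tagap, Tsc22d3) and fall in the lower row (Tnf, Osm, Socs3, Irf7, Bcl2); the genes were picked after their values were seen.

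The cytokine genes Osm and Tnf and the antiapoptotic gene Bcl2 were among those called lower with the block. Osm fell in each pair, with log2 differences of -0.76, -0.69 and -0.99 (-0.82 in the fit, SE 0.0647, adjusted p = 8.97e-07 in edgeR with the block). Tnf gave -0.53 (adjusted p = 7.63e-06) and Socs3 -0.42 (adjusted p = 0.00015), both in edgeR with the block. Bcl2, the founding antiapoptotic gene of its family, was at 154, 182 and 209 CPM in media and 127, 145 and 146 CPM in bovine collagen. It gave -0.37 (SE 0.0490, adjusted p = 0.000741 in edgeR with the block) with no overlap between groups. The arrestin-domain gene Arrdc3 was called at -0.55, the proteasome activator gene Psme2 at -0.30, the ribosomal protein gene Rpl36a at -0.28 and the linker histone gene H1f1 at -0.28. Rpl36a and H1f1 belong to families with close copies, so their single values are less certain. All of these were called under each other setting of the blocked fit that gave an adjusted p.

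The type I interferon list had 8 of 32 members called lower with the block and none higher, where 1.64% of all genes were called lower. In 20 of the 32 all 3 pairs were lower, in 1 all were higher, and the list's median was -0.15 (-0.18, -0.14 and -0.24 by pair) against 0.00 over all genes. The 8 were Rtp4, Ifit3, Irf7, Xaf1, Cmpk2, Irf9, Stat2 and Ddx58. Irf7, a transcription factor gene that amplifies interferon production, was at 30.03, 27.4 and 32.9 CPM in media and 22.6, 22.9 and 22.5 CPM in bovine collagen (-0.41, adjusted p = 0.000635 in edgeR with the block). Irf9 and Stat2, which encode partners in the factor that interferon activates, gave -0.23 and -0.19. Xaf1, an interferon-induced proapoptotic gene, went from 17.6, 18.4 and 22.8 CPM to 13.7, 14.9 and 16.9 CPM (-0.37). The count was 8 with GC and length offsets and 12 with library totals, but 3 with DESeq2 and 3 without the pair numbered 3. In rat tail against bovine collagen 17 members were called lower, where 26.4% of all genes were, and 5 higher, where 28.4% were.

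**Figure D4:**
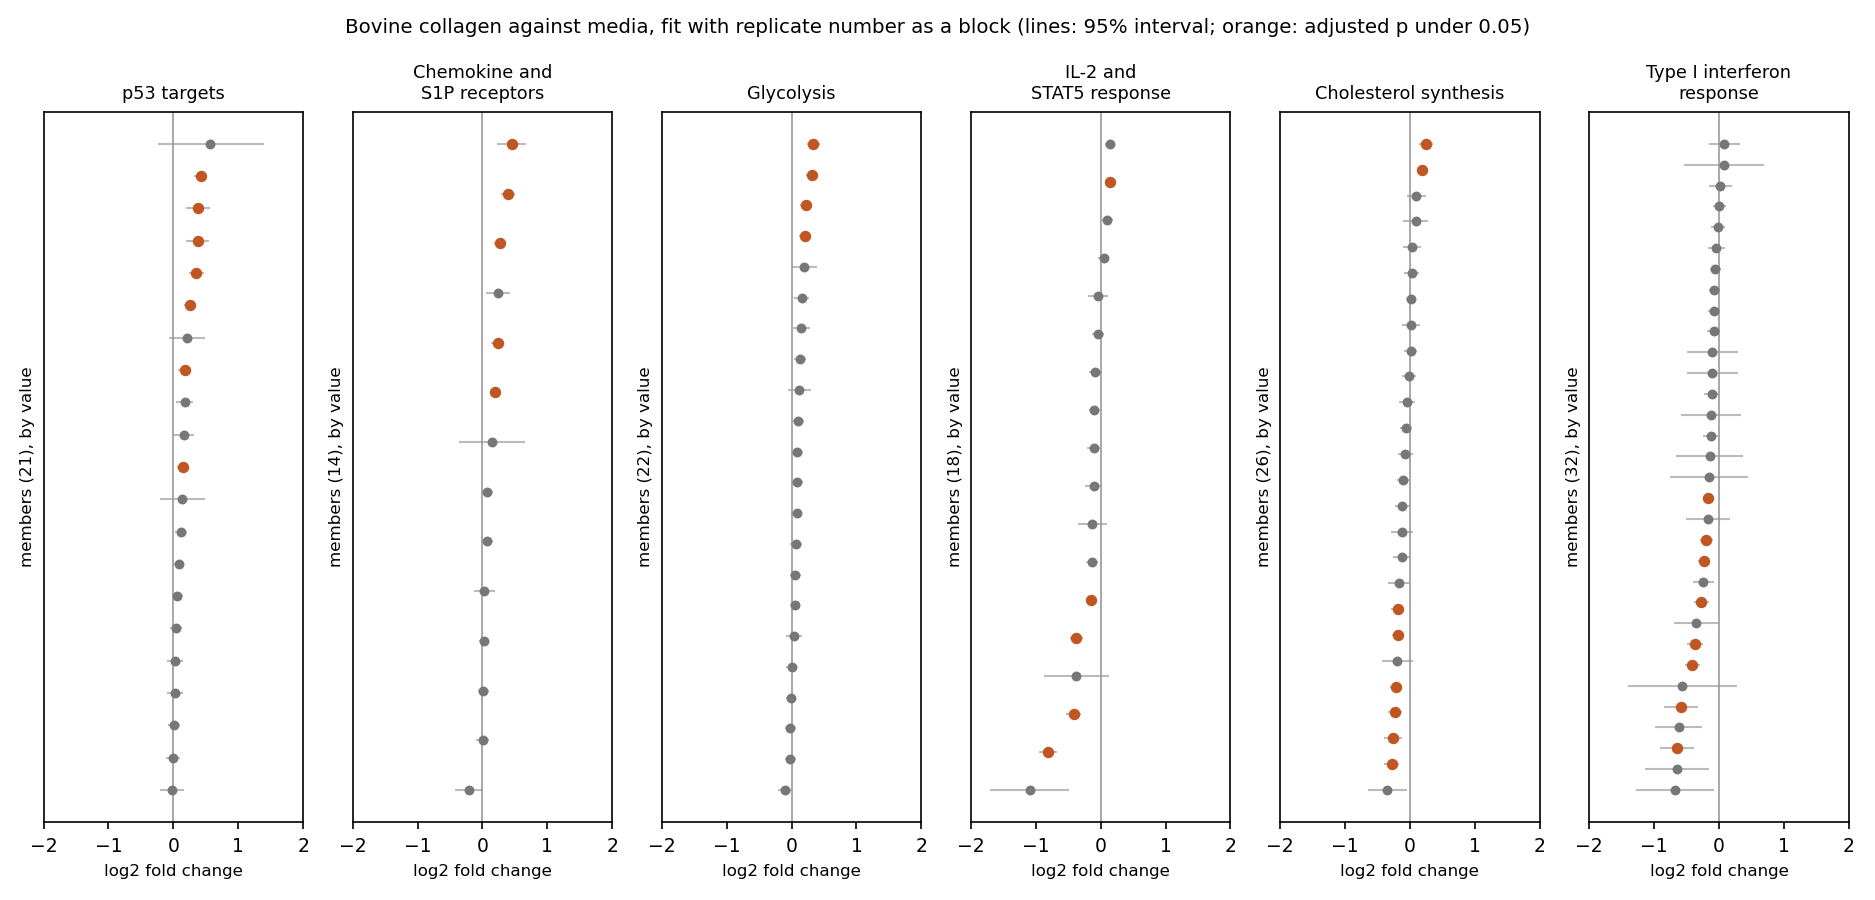
Log2 fold change of bovine collagen over media from the fit with the block for every tested member of 6 lists, ordered by value from top to bottom; the lists were picked after their counts were seen; lines are 95% intervals and orange points are called. Interferon members lie mostly left of 0 (8 called lower, none higher), p53 targets mostly right of it (7 called higher, none lower).

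The p53 target list had 7 of 21 members called higher with the block and none lower, where 2.08% of all genes were called higher, and its median was 0.15. Cdkn1a, which encodes the cyclin-dependent kinase inhibitor p21, was at 27.8, 28.6 and 22.2 CPM in media and 35.7, 39.9 and 29.5 CPM in bovine collagen, with no overlap (0.42, adjusted p = 6.14e-05 in edgeR with the block). Bbc3, the gene of the proapoptotic protein PUMA, was at 29.3, 23.7 and 32.1 CPM and 33.2, 34.2 and 41.2 CPM (0.35, adjusted p = 0.00196 in edgeR with the block). The others were Zmat3, Phlda3, Plk2, Bax and Btg2, at 0.15 to 0.38. Btg2 was called in 3 of the 11 other settings of this fit, Phlda3 in 5 of 10 and Plk2 in 6 of 10. Bax was not called with library totals, DESeq2 or GC and length offsets, nor without robust estimation or without the pair numbered 2 or 3. Mdm2, the feedback inhibitor of p53, gave 0.06 and was not called. With library totals 2 members were called, with DESeq2 or without robust estimation 3, and with GC and length offsets, or without the pair numbered 2 or 3, 4. No member of the list for heat shock and chaperones was called in edgeR with the block (2 higher and 1 lower at an unadjusted p under 0.05). The list for S phase had 2 of 35 called higher and that for G2 and mitosis 1 of 32 called lower.

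Receptors for chemokines and lipids that guide migration had 5 of 14 members called higher with the block and none lower, where 2.08% of all genes were called higher. Gpr183, the oxysterol receptor gene, was at 40.9, 36.6 and 40.8 CPM in media and 49.1, 46.2 and 60.2 CPM in bovine collagen (0.39, adjusted p = 0.00049 in edgeR with the block). Ccr7, a lymph node homing receptor gene, was at 291, 265 and 303 CPM and 323, 331 and 380.0 CPM (0.27, adjusted p = 0.00112 in edgeR with the block). Cxcr4 gave 0.24 and Ccr9 0.45. With library totals 1 member of this list was called and the list's median was 0.02 in place of 0.11, and without the pair numbered 3, 2 were called. Of the 5, 4 were lower in rat tail than in bovine collagen, with a log2 difference of -3.91 for Gpr183, while Ccr9 was higher there (1.40).

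Of 18 genes of the interleukin 2 and STAT5 response, 4 were called lower with the block (Osm, Socs3, Bcl2 and Ccnd3) and 1 higher (Il2rb, at 0.14), where 1.64% and 2.08% of all genes were. No member was called higher in 7 of the 11 other settings of this fit. Cish, the gene of this list with the largest difference, gave -1.09 but missed the threshold (adjusted p = 0.146 in edgeR with the block). In rat tail against bovine collagen 10 members of the list were called higher, where 28.4% of all genes were, and 5 lower, near the 26.4% of all genes. Cells had been grown with interleukin 2 before the move, and the labels do not say whether the gels held it.

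Calls on the metabolic lists were of small size. Cholesterol synthesis had 6 of 26 members called lower with the block, where 1.64% of all genes were, all in sterol supply or its feedback (Hmgcs1, Idi1, Sqle, Cyp51 and Insig1 among them), and 2 higher, the fatty acid desaturase genes Scd1 and Scd2. Sqle, the gene of squalene epoxidase, gave -0.28. No member was called lower without the pair numbered 3, and 1 was without robust estimation. Glycolysis had 4 of 22 called higher, where 2.08% of all genes were, the glucose transporter genes Slc2a1 (0.23) and Slc2a3 (0.31), the lactate transporter gene Slc16a3 (0.33) and Pfkl (0.21), and none lower. With library totals none of the glycolysis genes was called and the list's median was -0.01 in place of 0.09. The hypoxia response had 4 of 24 called higher, Egln3, P4ha1, Ndrg1 and Slc2a1, and none with library totals. Egln3 and Ndrg1 were each called in 4 of the 11 other settings of this fit.

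Lists related to force, matrix and volume had 1 to 5 members called each, where 2.08% of all genes were called higher and 1.64% lower. Of 13 mechanosensitive channel genes, 2 were called higher with the block: Tmem63b (0.37) and the potassium channel gene Kcnk5 (0.23). Of 19 collagen receptors and integrins, Itga4 (0.22) and Itgav (0.17) were called higher, and of 12 YAP and TAZ targets Ptpn14 (0.57). Of 17 matrix proteases and inhibitors 3 were called higher and none lower, the metalloproteinase genes Adam8 (0.29) and Adam19 (0.14) and the proprotein convertase gene Furin (0.16). No member of the lists of channels, of collagen receptors and integrins or of matrix proteases was called with library totals. The channel list also lost its calls with DESeq2 and without the pair numbered 1, and the receptor list without the pair numbered 3. Ptpn14 was called in 6 of 10 other settings, Itgav and Furin each in 5 of 11 and Adam19 in 3 of 11. Of 13 targets of SRF and MRTF, factors that respond to actin, Vcl and Filip1l were called higher and Actb, Cnn2 and Srf lower, and no member was called lower without robust estimation or without the pair numbered 3. Among 44 genes of actin and motility 3 were higher, Lmna (0.58) and Vcl (0.29) among them, and Actb was lower (-0.15). The osmotic response had 4 of 17 called higher, Slc6a6, the taurine transporter gene, at 0.33, then Wnk1 (0.22), Slc38a2 (0.19) and Slc12a7 (0.15). With library totals none of these 4 was called, and Slc12a7 was called in only 3 of the 11 other settings of this fit. Slc6a6 was at 221, 189 and 208 CPM in media and 276, 234 and 262 CPM in bovine collagen, without overlap, and higher again in rat tail collagen (0.75 over bovine collagen, adjusted p = 3.88e-05 in edgeR).

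Genes linked to residence in tissue did not move together. Of 31 genes on the list of those higher in resident memory cells, 4 were called higher with the block (Cd69, Ctla4, Nr4a1 and Prdm1) and 3 lower (Skil, Dusp6 and Inpp4b). Of 18 on the list of those lower in resident cells, 2 were called higher and 1 lower. Klf2, whose loss goes with residence, was at 136, 125 and 169 CPM in media and 148, 159.8 and 184 CPM in bovine collagen (0.20, adjusted p = 0.0208 in edgeR with the block). It was called in 6 of the 11 other settings of this fit, and not with library totals, without robust estimation, with GC and length offsets or without the pair numbered 1 or 2. Prdm1, the gene of the transcription factor Blimp-1, was at 22.1, 17.3 and 8.77 CPM and 27.6, 22.5 and 10.1 CPM (0.31, adjusted p = 0.00801 in edgeR with the block), and was called in 8 of the 11. Itgae (-0.10, interval -0.19 to -0.02), S1pr1 (0.08, -0.01 to 0.16), Tcf7 (0.04, -0.05 to 0.13) and Gzmb (0.19, 0.06 to 0.31) were not called with the block either, and their intervals now lay within 1.5-fold.

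**Figure D5:**
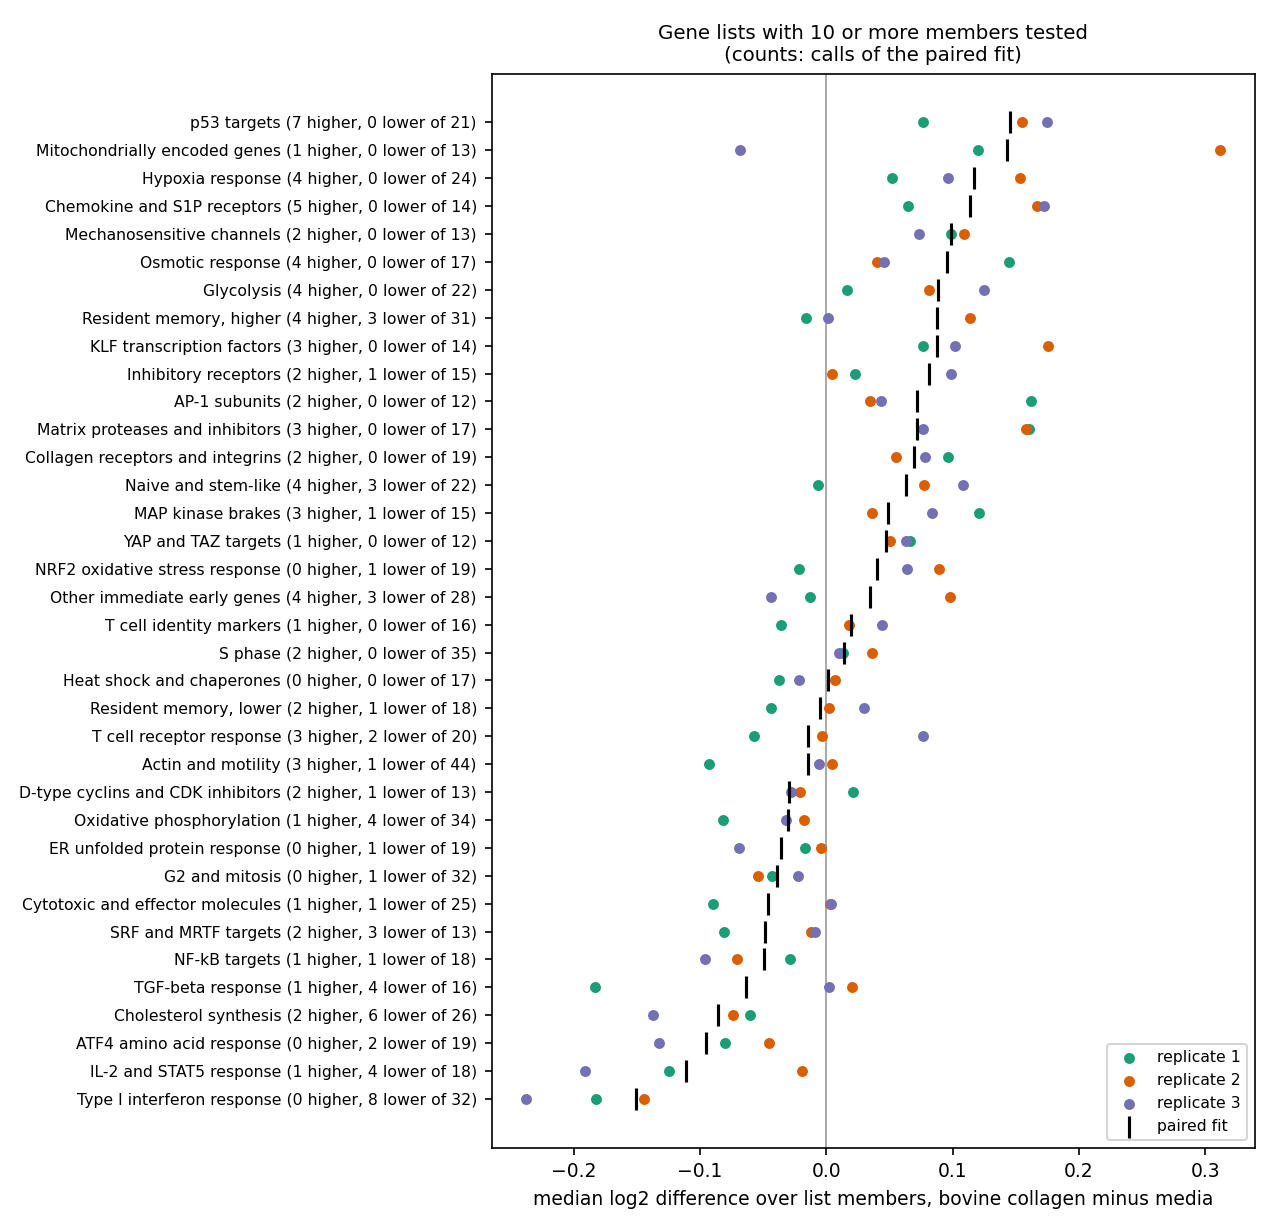
Median log2 difference of bovine collagen minus media over the members of each list with 10 or more tested members; coloured points are the 3 pairs, black bars the fit with the block, and the counts beside each name are its calls. Medians lie between -0.15 (type I interferon response) and 0.15 (p53 targets), and in several lists 1 pair lies across 0 from the others.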

How the data were processed

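Bulk RNA sequencing covered 12 libraries of mouse CD8+ T cells, 3 per group. Per the labels, 150 ng of RNA went into each library after depletion of ribosomal RNA, and the builds GRCm38 and mm10 are named in the submitters' processing notes beside HISAT2, featureCounts, SAMtools, Picard, FastQC and MultiQC. The sources used here give no version, annotation release or strand setting. Whole-number counts per gene symbol (55291 symbols) were used exactly as deposited, without change.

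The main test was edgeR 4.0.16 in R 4.3.3: filterByExpr, TMM factors and the robust quasi-likelihood F test on the 9 day 4 libraries with a mean per group, with Benjamini-Hochberg adjustment over 19392 genes. Rat tail libraries entered to share the estimate of the spread. CPM values use 1 TMM scale over the 12 libraries. The labels state 3 mice per group but do not tie libraries to mice, so p-values measure the spread between these libraries. Alternatives were other factors, filters, library sets, limma-voom 3.58.1, DESeq2 1.42.0, each library left out and replicate number as a block. Locations come from GENCODE M21, which held 53291 of the symbols. The symbols not found held 2.28% of counts. Sequences come from RefSeq (GRCm38.p6), where all 6 looked for were found.

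Groups share replicate numbers, and no label states a pairing. Deviations from the group mean were correlated between the media and bovine libraries of the same number, as a description across genes. Over the 9897 genes with a mean log2 CPM above 3 the values were 0.79, 0.24 and 0.80 for numbers 1, 2 and 3, and over 14318 genes above 0 they were 0.67, 0.13 and 0.74. Over all 17926 genes of the 6-library filter they were 0.49, 0.07 and 0.56, and bovine 2 was then as near to media 1 (0.07). A pairing was to be accepted where every value exceeded 0.1, so the gene set decides it. The correlations and the calls of both fits were first seen together, so the choice to give the paired fit was not made blind to its calls. That fit used the 6 libraries with number as a block (17926 genes), a common biological coefficient of variation of 5.96% against 12.7% without the block, and 11 alternatives added after its results were seen.

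Gene members, 41 lists and the naming rule were chosen with earlier results of these data known, and so support nothing as independent evidence. The rule named all calls, the next 12 genes per direction, the AP-1, immediate early and KLF lists, up to 3 members of each other list and 18 further genes. Some genes that the rule covers are not reported here. Genes named from the paired fit were chosen after their values were seen. Both fits were tested on simulated data with known changes.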

Additional observations from a re-analysis of the deposited data

Results flagged for a closer look

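For each of the 4 genes called in bovine collagen against media, the direct test between the gels gave a difference as well, so the change from media differed in size between the gel groups. The genes were called by their bovine libraries, which this test uses again. The values are rat tail minus bovine collagen on the log2 scale, with edgeR's adjusted p over all genes tested, a comparison in which 54.7% of genes were called. Fosb differed by -1.44 (adjusted p = 2.27e-05) and Fos by -1.71 (adjusted p = 5.28e-05), both lower in rat tail collagen in 3 of 3 libraries. Klf4 differed by 2.26 (adjusted p = 8.43e-06) and Gm37352 by 0.41 (adjusted p = 0.027), both higher in rat tail collagen in 3 of 3 libraries. No cause was tested. Groups of 3 are too small for a check for single outlying libraries.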

How the results depend on the processing

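The count of called genes was 4 (4 higher, 0 lower) and depended on the test more than its members did: Fosb was called under 31 of 31 settings, Fos under 30 of 30, Gm37352 under 29 of 31 and Klf4 under 25 of 30. Klf4 was not called with limma-voom, nor, with Gm37352, in the fit of 6 libraries without the block. Gm26532 was called under 15 of 30. Calls numbered 9 with library totals (6 higher, 3 lower), 22 with DESeq2 (15 and 7), 39 without a filter (21 and 18; 1362 at an unadjusted p under 0.05), 2 with only the 6 libraries (2 higher) and 7 with the replicate block in 9 libraries (7 higher; 1237 unadjusted). Leaving out 1 library gave 2 to 5 calls (2 without media 2), all higher.

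The replicate block in the 6 libraries gave 667 calls (373 higher, 294 lower; 3042 at an unadjusted p under 0.05). With that block, calls (higher and lower, then unadjusted) were 688 with limma-voom (391 and 297; 3091), 642 with RLE factors (361 and 281; 3010), 663 without rRNA genes (352 and 311; 3035), 746 with a filter of 1 CPM (409 and 337; 2834), 560 with library totals (72 and 488; 3143), 385 with GC and length offsets (229 and 156; 2748), 314 without robust estimation (192 and 122; 2919) and 252 with DESeq2 (145 and 107; 1290), where 8341 genes, 2 of the 4 called without pairing included, had no adjusted p. Leaving out a pair gave 345 without number 1 (207 and 138; 2579), 818 without number 2 (426 and 392; 2943) and 361 without number 3 (233 and 128; 2255). The cause of these differences was not tested. No named gene changed sign past a threshold under any setting run. Genes near 1 CPM and changes well under 2-fold were limited by depth and by 3 libraries a group.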

Other observations

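Lists not described above also held calls of the fit with the block, in which 2.08% of all genes were called higher and 1.64% lower. Of 16 TGF-beta response genes 4 were called lower, the feedback genes Ski (-0.18) and Skil (-0.20) and the inhibitors of differentiation Id2 (-0.23) and Id3 (-0.21), and Tgif1, a transcriptional corepressor gene, was called higher (0.40). Ski and Skil were higher in rat tail than in bovine collagen, by 0.97 and 1.72. Of 15 genes that brake MAP kinase signalling, Dusp1 (0.42), Dusp5 (0.23) and Spred2 (0.25) were called higher and Dusp6 lower (-0.19). Spred2 was called in 5 and Dusp6 in 7 of the 11 other settings. Of 15 inhibitory receptor genes, Ctla4 and Havcr2 (0.44) were called higher and Cd101 lower (-0.26). Havcr2, the gene of TIM-3, was at 7.89, 5.70 and 2.46 CPM in media and 11.3, 7.54 and 3.13 CPM in bovine collagen, so it varied more between numbers than between cultures. Oxidative phosphorylation had 4 of 34 genes called lower, all at -0.20 to -0.14, and Cox6a1 higher (0.15), and no member of that list was called in 5 of the 11 other settings.

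Among genes called with the block, symbols of clones, predicted genes and numbered pseudogenes made up 29 of the 373 higher and 104 of the 294 lower. Such symbols were 31.5% of the genes tested.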
